A study of Mus musculus with 8 samples.

Results

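The feedback inhibitors of the MAPK cascade examined here were 9 listed genes, Dusp1, Dusp4, Dusp5, Dusp6, Spry1, Spry2, Spry4, Spred1 and Spred2, looked up by symbol in a table of 21915 mouse genes. Of these, 8 were found and all 8 passed the filter on low counts, and Spry2 is not analysed here. Messenger RNA was measured by sequencing the polyadenylated fraction from Hepa 1-6, a hepatoma cell line of the mouse, in 2 control samples and 2 samples labelled Kap1 Knock-down (Kap1 KD). Kap1 KD cells carried an shRNA against Kap1 and control cells the empty vector. The vector was delivered 5 days before the cells were collected. A label field names transduction and another names plasmid transfection, and the study's methods describe transduction. Puromycin selection was applied to both groups. All 4 samples came from this 1 established line, so they say nothing of primary hepatocytes, and the labels do not tell whether replicates were separate cultures, so that p-values measure only the spread between these samples. The other 4 samples of the series are small RNA libraries that list tRNA and snoRNA sequences and do not measure these genes. In each mRNA group, 1 sample carries the number 2 in its label and the other, which has no number, is called sample 1.

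Growth factor receptors pass their signal through Ras, Raf, MEK and ERK, and ERK-responsive transcription factors then switch on the genes of proteins that damp the same cascade. The dual-specificity phosphatases (DUSPs) remove phosphate from the activating tyrosine and threonine of MAP kinases, whereas Sprouty (Spry) and Spred proteins act further up, between the receptor and Raf. Because their transcripts are short-lived and follow the state of the cascade, DUSP and Sprouty mRNA levels are widely used as a readout of ERK signalling, in hepatoma cells as elsewhere.

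Promoter sequences of 5 genes are printed first, because Dusp1 and Dusp5 were the listed genes with higher values in Kap1 KD samples of both numbers and their relative Dusp8 had the largest fitted change of the wider family, whereas Dusp6 and Spry1 had small negative changes. Each is the 250 bases before the annotated start, from RefSeq on the GRCm38.p6 build, written 5′ to 3′ on the strand of the gene. Windows were at hand for 7 of the 9 listed genes. Capitals mark matches, on either strand, to the cyclic AMP response element TGACGTCA, to its core TGACG, to the serum response element core known as the CArG box, and to the ETS motif CGGAAG. The AP-1 motif TGANTCA was searched as well and matched none of the 5 windows. The motifs were chosen after the sequences had been seen, a full response element holds the core on both strands, and a match is a description of letters, not a binding site.
Dusp1 (chr17:26508473-26508722, minus strand): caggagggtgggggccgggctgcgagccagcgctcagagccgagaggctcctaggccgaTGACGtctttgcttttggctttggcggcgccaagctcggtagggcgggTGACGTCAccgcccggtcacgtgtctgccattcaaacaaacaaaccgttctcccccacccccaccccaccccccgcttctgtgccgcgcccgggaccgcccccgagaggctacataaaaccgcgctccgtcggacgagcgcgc
Dusp5 (chr19:53528895-53529144, plus strand): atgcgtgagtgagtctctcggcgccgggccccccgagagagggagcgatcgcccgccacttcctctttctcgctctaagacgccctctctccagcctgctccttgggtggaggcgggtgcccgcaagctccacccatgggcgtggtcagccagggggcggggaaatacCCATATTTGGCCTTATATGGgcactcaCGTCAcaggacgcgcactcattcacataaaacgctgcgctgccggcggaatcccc
Dusp8 (chr7:142095285-142095534, minus strand): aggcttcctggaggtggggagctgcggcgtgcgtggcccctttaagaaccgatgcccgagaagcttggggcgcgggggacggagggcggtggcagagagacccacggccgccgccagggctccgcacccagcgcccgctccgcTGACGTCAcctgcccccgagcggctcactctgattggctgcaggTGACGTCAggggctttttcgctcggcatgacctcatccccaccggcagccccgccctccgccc
Dusp6 (chr10:99262981-99263230, plus strand): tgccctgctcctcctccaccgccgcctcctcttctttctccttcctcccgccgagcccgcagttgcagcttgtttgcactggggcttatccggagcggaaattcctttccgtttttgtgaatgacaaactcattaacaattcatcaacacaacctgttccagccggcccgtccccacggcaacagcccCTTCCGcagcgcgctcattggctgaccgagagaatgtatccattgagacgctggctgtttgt
Spry1 (chr3:37639697-37639946, plus strand): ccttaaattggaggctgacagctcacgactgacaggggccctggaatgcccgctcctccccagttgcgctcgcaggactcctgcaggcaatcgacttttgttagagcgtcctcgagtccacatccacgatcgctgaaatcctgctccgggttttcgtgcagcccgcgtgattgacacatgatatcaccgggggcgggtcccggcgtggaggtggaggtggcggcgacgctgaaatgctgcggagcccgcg
The Dusp1 window held 1 full response element, 143 to 136 bases before the start, and a further core 191 to 187 bases before it. Dusp8 held the full element at 107 to 100 and again at 63 to 56 bases before the start. The full element was present in 1.55% of 32851 mouse promoter windows of the same length. Dusp5 had adjoining CArG boxes at 82 to 73 and 72 to 63 bases, a motif found in 1.47% of windows, and a core at 55 to 51 bases, a motif found in 17.8%. In Dusp6 the single match was an ETS motif at 62 to 57 bases, which 13.6% of windows also held, and Spry1 held none of the motifs. Of the windows not printed, Spred1 had an ETS motif 17 to 12 bases before the start, and Spred2 an ETS motif at 43 to 38 and a core at 51 to 47 bases. The AP-1 motif occurred in 6.75% of all windows. The genes printed were picked by their changes, so their motifs cannot be read against direction. Of the relatives with a window not printed, Dusp2, Dusp7, Dusp10 and Spred3 held none of the motifs (fitted changes 0.55, 0.17, -0.06 and 0.31). Dusp14 (0.40) had an ETS motif at 28 to 23 bases, and Dusp16 (0.05) a core at 70 to 66 bases. Whether motif and change go together was not tested.

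Libraries held 41566888 to 53605115 counts, and the 8 genes had 838 to 14736 counts per sample. Levels are given as CPM, read counts scaled to library size, after TMM normalisation. Trim28, the gene of KAP1, measured 456 and 575 CPM in control samples 1 and 2 and 106 and 78.9 CPM in Kap1 KD samples 1 and 2, a log2 change of -2.48 ± 0.25 (SE). Samples stood apart by number more than by group. The first principal component of the 14142 tested genes, with 75.8% of the variance, separated samples 2 from samples 1, and the second, with 17.7%, separated Kap1 KD from control. Kap1 KD sample 2 also carried 43 CPM over 49 loci named 7SK, against 1.91 to 2.42 CPM in the other samples. Of 8 hepatocyte markers fixed as a list, 6 passed the filter. Of these 6, 5 were lower in Kap1 KD within both numbers, against 38.1% of all tested genes. The summed level of the list was 2000 to 2400 CPM in control and 1050 to 1670 CPM in Kap1 KD samples. Alb, the gene of albumin, had 1580 and 1040 CPM in control and 975 and 441 CPM in Kap1 KD samples, whereas Serpina1a and Ttr did not pass the filter. Markers of other liver cells summed to 25.4 CPM in both control samples and to 20.6 and 19.8 CPM in Kap1 KD samples 1 and 2. Epcam was the largest part of that sum, at 16.5 and 15.2 against 12.1 and 8.57 CPM. Cd68 followed at 3.91 and 6.33 against 3.19 and 7.42 CPM. Col1a1 of that list had a log2 change of 0.71, and the endothelial genes Kdr, Cdh5 and Pecam1 lay at 0 to 0.262 CPM. The part of these differences in the results below was not tested, and in bulk RNA fewer cells that express a gene and less RNA per cell cannot be told apart.

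Per kilobase of exon, the scale on which genes can be compared, the ERK-directed phosphatase genes Dusp6 and Dusp4 were highest among the 8 genes. Further DUSP genes outside the list were not part of this order. Dusp6 stood at 89.4 ± 23.8 CPM per kb (SD, n = 2) in control cells and Dusp4 at 65.6 ± 10.1, and their ranges overlapped. A wide step followed, and 5 genes lay close together, from Spred2 at 16.1 ± 3.12 through Spry1 at 13.4 ± 2.65, Spred1 at 13.1 ± 4.71 and Dusp1 at 12.6 ± 4.66 to Dusp5 at 11.6 ± 1.98 CPM per kb. Each of these overlapped its neighbour in the order, so they could not be ranked. Spry4 was lowest at 5.51 ± 0.406, and neither of its control samples reached those of Dusp5.
In Kap1 KD cells Dusp6 and Dusp4 again came first, at 78.8 ± 21.6 and 71.5 ± 19.3 CPM per kb, and Spry4 last at 4.45 ± 0.23. The middle genes stood in another order, with Dusp5 at 19.5 ± 6.43 and Dusp1 at 17.3 ± 5.85 before Spred2 at 13.8 ± 1.85, Spry1 at 12.8 ± 2.64 and Spred1 at 10.8 ± 3.58, but neighbours overlapped here as well. The plot of levels in each sample shows how the lines joining same-numbered samples run.

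**Figure D1:**
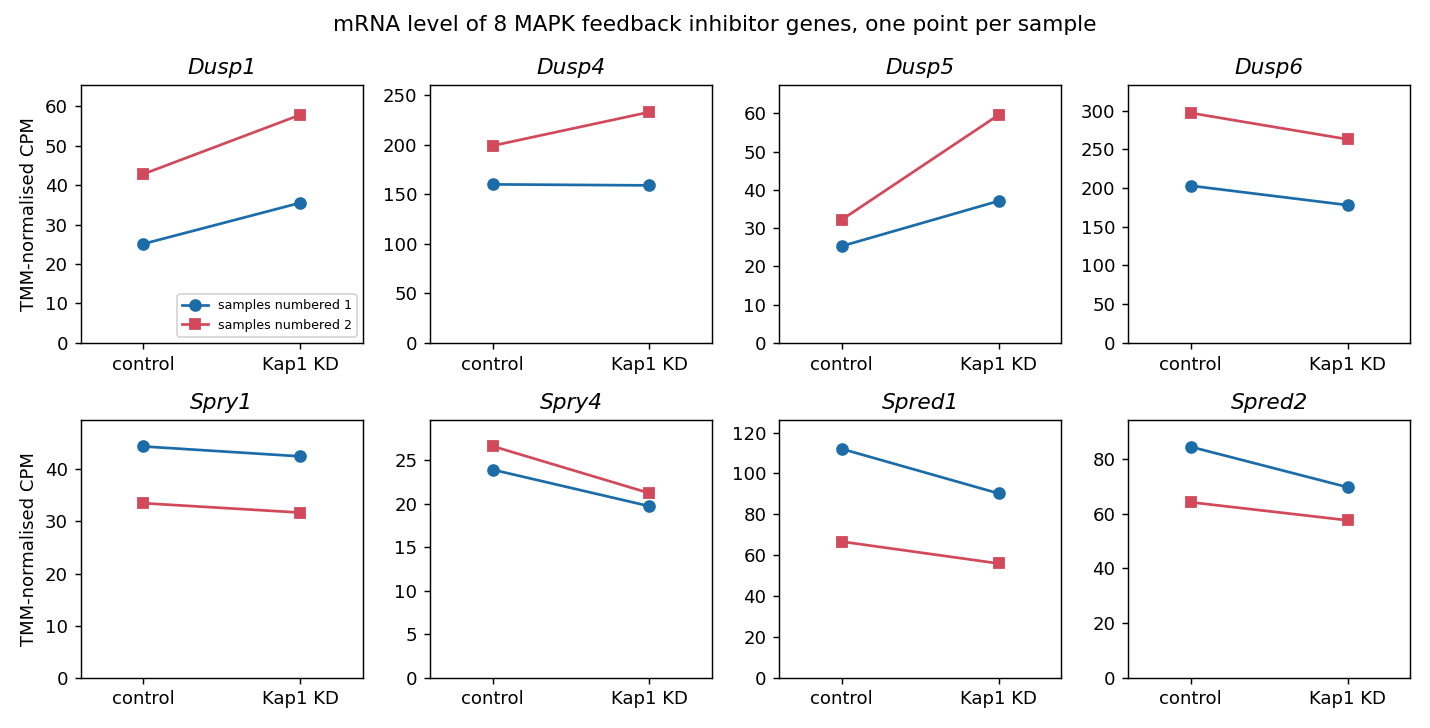
TMM-normalised CPM (vertical axis, from 0, on a scale of its own in each panel) of the 8 feedback inhibitor genes in control and Kap1 KD samples (horizontal axis), one point per sample, with lines joining samples of the same number. Dusp5 is higher at the Kap1 KD end of both lines (37.1 against 25.3 and 59.6 against 32.2 CPM), Spred1 is lower at that end of both, and in every panel except those of Dusp5 and Spry4 the control and Kap1 KD ranges overlap.

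The first comparison asked whether loss of KAP1 went with a change in these genes. The median log2 change was 0.29 over the 4 phosphatase genes and -0.26 over the 4 Sprouty and Spred genes, whereas it was -0.13 over the 8 genes and -0.02 over all 14142 tested genes. None of the 8 passed the test in the fit of the 2 groups without the sample number. In edgeR's quasi-likelihood fit across all genes, in which a call needed an adjusted p (Benjamini-Hochberg) under 0.05 and a fold change of 1.5, 0 of 14142 genes were called (0%), 185 (1.31%) had an unadjusted p under 0.05 and none of the 8 genes was among them, and DESeq2 called 3 genes in all and 0 of the 8. With 2 samples on each side, an exact permutation test (two-sided) has p = 0.333 as its smallest value, so that none was run. Every adjusted edgeR p in the fit without the sample number was 0.9999, also that of Trim28 itself. A gene short of the threshold is thus not shown to be unaltered. With the sample number as a block, edgeR called 631 genes (4.46%), among them Trim28 and 1 of the 8, Dusp5 (edgeR adjusted p = 3.65e-19). That fit rests on 2 pairs of samples, and the labels do not say what the number marks.

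Dusp5 (ENSMUSG00000034765, mm9 chromosome 19, 53603599 to 53616921, plus strand), a nuclear phosphatase that binds and inactivates ERK, had the largest difference. Its level was 25.3 and 32.2 CPM in control samples 1 and 2 and 37.1 and 59.6 CPM in Kap1 KD samples 1 and 2. Both Kap1 KD samples lay above both control samples. The means were 28.7 ± 4.9 and 48.3 ± 15.9 CPM (SD, n = 2 each), a 1.68-fold difference with a log2 change of 0.75 ± 0.31 (SE) and an unadjusted edgeR p of 0.0608, which ranked 249th of the tested genes. Within numbers the log2 difference was 0.55 for samples 1 and 0.89 for samples 2. Without Kap1 KD sample 2, the library with the high 7SK signal, the log2 change was 0.38, and it was 1.05 without Kap1 KD sample 1, 0.95 without control sample 2 and 0.59 without control sample 1.

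Dusp1 (ENSMUSG00000024190, chromosome 17, 26642535 to 26645464, minus strand) encodes a nuclear immediate-early phosphatase that acts on p38 and JNK as well as ERK. It stood at 25.1 and 42.8 CPM in the control samples and at 35.5 and 57.8 CPM in the Kap1 KD samples. The Kap1 KD sample was the higher one within each number, by 0.50 and 0.43 on the log2 scale, but Kap1 KD sample 1 lay below control sample 2, so the groups overlapped. The log2 change was 0.46 ± 0.38 (SE), with an unadjusted edgeR p of 0.285. It was 0.07 without Kap1 KD sample 2 and 0.12 without control sample 1, but 0.77 without Kap1 KD sample 1 and 0.91 without control sample 2.

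The remaining phosphatase genes had smaller differences, with no common sign. Dusp4 (ENSMUSG00000031530, chromosome 8, 35870351 to 35882948, plus strand), another nuclear phosphatase of the family, measured 160 and 199 CPM in control and 159 and 233 CPM in Kap1 KD samples. The pair of samples 1 was level (-0.01 on the log2 scale) and the pair of samples 2 differed by 0.23, and the fitted change was 0.13 ± 0.26 (SE). Dusp6 (ENSMUSG00000019960, chromosome 10, 98725865 to 98730122, plus strand) encodes a cytoplasmic phosphatase specific for ERK. Its level was 203 and 297 CPM in control and 178 and 263 CPM in Kap1 KD samples. It was thus lower in Kap1 KD within both numbers, by -0.19 and -0.17, while the groups overlapped widely, and its log2 change was -0.18 ± 0.30 (SE). Dusp5 and Dusp6 thus had changes of opposite sign. Neither passed the test in the fit without the sample number.

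All 4 Sprouty and Spred genes were lower in Kap1 KD within both numbers, by small amounts. Spry4 (ENSMUSG00000024427, chromosome 18, 38745922 to 38760922, minus strand), an inhibitor of receptor signalling to Ras, stood at 23.9 and 26.6 CPM in control and at 19.7 and 21.2 CPM in Kap1 KD samples. It was the only one of the 4 with both Kap1 KD samples below both control samples, and its log2 change was -0.31 ± 0.20 (SE, unadjusted edgeR p of 0.181). Spry1 (ENSMUSG00000037211, chromosome 3, 37538869 to 37543520, plus strand), a Sprouty protein with the same role, had 44.4 and 33.5 CPM in control and 42.5 and 31.7 CPM in Kap1 KD samples. Its values followed the sample number and hardly the group, with a log2 change of -0.07 ± 0.26 (SE).
Spred1 (ENSMUSG00000027351, chromosome 2, 116947110 to 117008015, plus strand), which brings neurofibromin to the membrane to switch off Ras, measured 112 and 66.6 CPM in control and 90.2 and 55.9 CPM in Kap1 KD samples. Within numbers it was lower by -0.31 and -0.25, yet Kap1 KD sample 1 exceeded control sample 2, and the fitted change was -0.29 ± 0.37 (SE). Spred2 (ENSMUSG00000045671, chromosome 11, 19824378 to 19924029, plus strand), its close relative, measured 84.5 and 64.2 CPM in control and 69.7 and 57.6 CPM in Kap1 KD samples, again with overlapping groups, and its log2 change was -0.22 ± 0.23 (SE). Without control sample 1 it was -0.01, and without Kap1 KD sample 2 it was -0.08.

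Counted together, 1 of the 8 genes, Dusp5, had both Kap1 KD samples above both controls, as did 9.69% of all tested genes, and 1, Spry4, had both below, as did 10.6%. Within both numbers, 2 genes (Dusp1 and Dusp5) were higher in Kap1 KD, against 32.8% of tested genes, and 5 (Dusp6, Spry1, Spry4, Spred1 and Spred2) were lower, against 38.1%. The counts of genes with separate groups and of genes higher within both numbers were near those shares, and the count of 5 lower genes was not tested against its share. Leaving out 1 library turned the sign of 4 of these changes, none of which had passed the test. Dusp4, Spry1 and Spred1 turned without control sample 1 (to -0.02, 0.15 and 0.13) and without Kap1 KD sample 2 (to -0.17, 0.14 and 0.03), and Dusp6 without control sample 2 (to 0.14) and without Kap1 KD sample 1 (to 0.07).

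**Figure D2:**
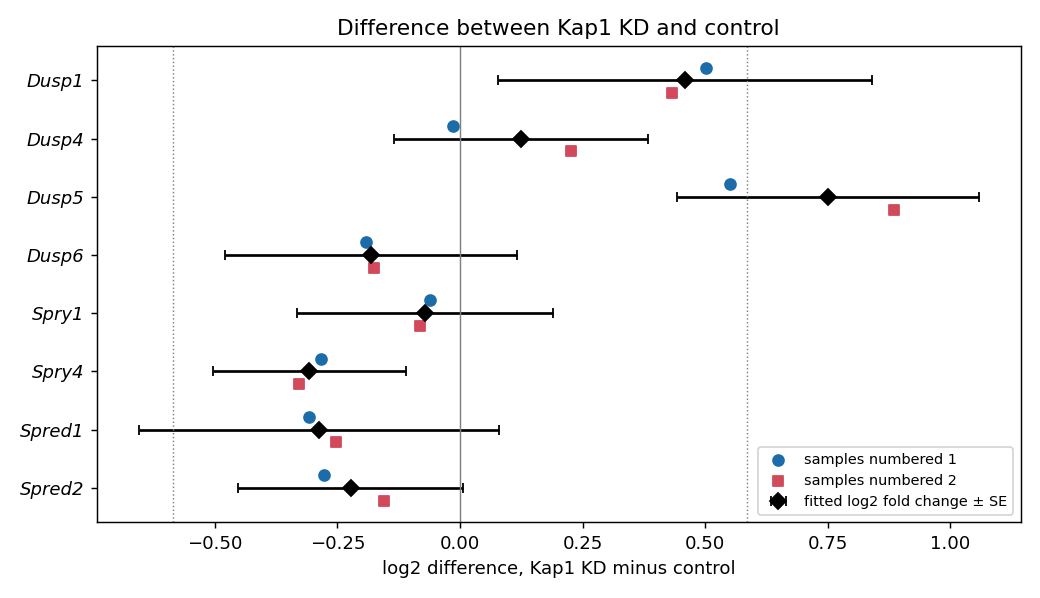
Log2 difference between Kap1 KD and control (horizontal axis) for each of the 8 genes, as the difference within samples numbered 1 (circles), within samples numbered 2 (squares) and as the edgeR log2 fold change with its SE (diamonds with bars). Dotted lines mark a 1.5-fold change, which only Dusp5 exceeds at 0.75, and the bars of Dusp4, Dusp6, Spry1, Spred1 and Spred2 reach across 0.

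The second comparison set the samples numbered 2 against those numbered 1, to show how far the same genes varied between samples of 1 condition. Its fit also held the group and is the same fit as that with the sample number as a block, so it too rests on 2 pairs. Its p-values rest on another spread than those of the fit without the sample number, so counts from the 2 fits cannot be compared. For 6 of the 8 genes the difference between numbers exceeded that between Kap1 KD and control in size. The exceptions were Dusp5 and Spry4, and the share of all tested genes was not counted. Dusp1 was higher in samples 2, by 0.77 on the log2 scale between controls and by 0.70 between Kap1 KD samples, and Spred1 was lower, with differences of -0.75 and -0.69. These 2 genes passed the thresholds of a 1.5-fold change and an adjusted p under 0.05 in edgeR, as did 3748 genes (26.5%) in all, so the share of the 8 genes was close to that background. Dusp1 had a fitted difference of 0.74 ± 0.07 (SE, edgeR adjusted p = 9.87e-22) and Spred1 of -0.72 ± 0.08 (SE, edgeR adjusted p = 5.81e-18). What the number marks, such as a day, a culture or a library preparation, is not stated in the labels.

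With the adjusted p alone, 7 of the 8 genes passed, against 63.6% of tested genes. In the same fit, 6 of the 8 passed between Kap1 KD and control, against 21.6%. Without the group in the fit, the difference between numbers passed for 5 of the 8, against 35.7%. Dusp5 (edgeR adjusted p = 0.191), Spred2 (edgeR adjusted p = 0.0744) and Spry4 (edgeR adjusted p = 0.552) did not pass. All 4 phosphatase genes were higher in samples 2. Dusp6 was higher by 0.56 ± 0.06 (SE, edgeR adjusted p = 5.8e-20), Dusp5 by 0.52 ± 0.08 (SE, edgeR adjusted p = 3.99e-11) and Dusp4 by 0.44 ± 0.06 (SE, edgeR adjusted p = 2.01e-11). Of the Sprouty and Spred genes, Spry1 was lower, with a log2 difference of -0.42 (edgeR adjusted p = 1.55e-07) and Spred2 one of -0.34 (edgeR adjusted p = 8.32e-05). Spry4 had a difference of 0.13 ± 0.09 (SE, edgeR adjusted p = 0.193), so that the phosphatase genes and Spry1, Spred1 and Spred2 differed in opposite directions between samples of the same condition.

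**Figure D3:**
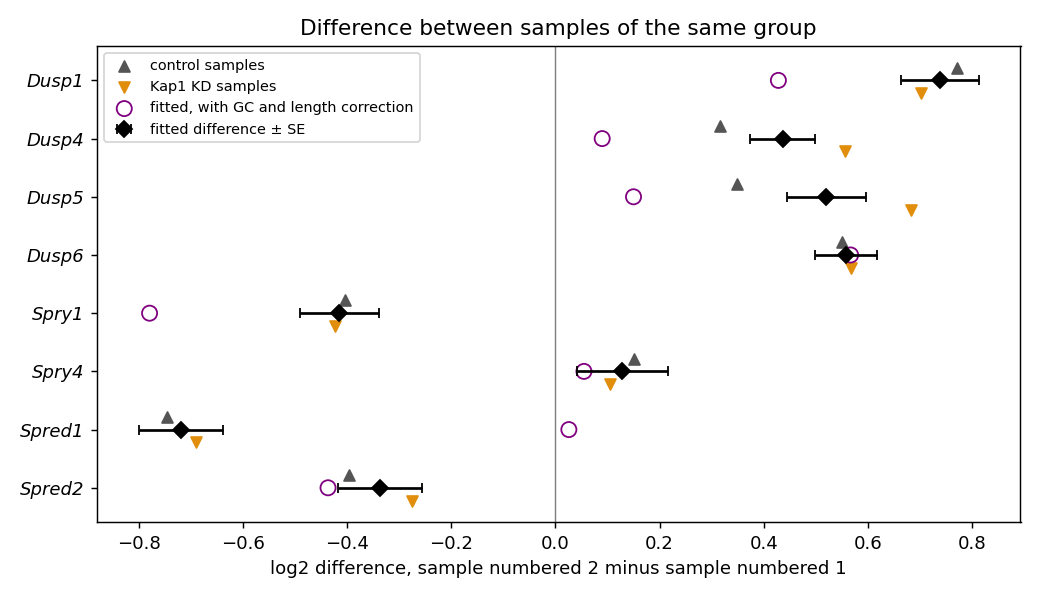
Log2 difference between the sample numbered 2 and the sample numbered 1 (horizontal axis) for each of the 8 genes, in control samples (upward triangles), in Kap1 KD samples (downward triangles), as fitted by edgeR with its SE (diamonds with bars) and as fitted after correction for GC content and exonic length (open circles). The difference of Spred1 is -0.72 before and 0.03 after the correction, that of Dusp6 is 0.56 and 0.57, and that of Spry1 is -0.42 and -0.78.

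Base composition moved with the sample number. Across the 12417 tested genes with a coding transcript (87.8%), GC content and the log2 difference between samples 2 and 1 had a Spearman rho of 0.678, given as a description because all genes share the same 4 libraries. The same measure was 0.346 for the difference between Kap1 KD and control. Spred1 had a GC content of 41.22%, below the lower quartile of 45.5%, whereas Dusp5 and Spry1 stood at 56.73%, Dusp4 at 55.99% and Dusp1 at 54.87%, near or above the upper quartile of 55.1%, and Dusp6 at 49%, Spry4 at 50.84% and Spred2 at 51.25% lay near the median of 50.3%. After each sample had been corrected for GC content and exonic length, an alternative chosen after seeing the data, 1901 genes (13.4%) and 1 of the 8, Spry1, were called between the numbers. The difference of Spred1 then was 0.03 (edgeR adjusted p = 0.785) and that of Dusp4 0.09 (edgeR adjusted p = 0.14). Dusp1 had 0.43 (edgeR adjusted p = 2.42e-09) in place of 0.74 and was no longer called, and Dusp5 had 0.15 (edgeR adjusted p = 0.0427) in place of 0.52. Dusp6 stood at 0.57 (edgeR adjusted p = 1e-20) and Spred2 at -0.44 (edgeR adjusted p = 5.03e-08), and Spry1 reached -0.78 (edgeR adjusted p = 1.15e-21). Spry1 and Dusp5, with the same GC content, had differences of opposite sign before and after the correction. The part of base composition in the differences between numbers was not tested. Between Kap1 KD and control the same correction left the directions of all 8 genes as they were, with log2 changes of 0.64 for Dusp5, 0.40 for Dusp1, 0.04 for Dusp4, -0.16 for Dusp6, -0.14 for Spry1, -0.29 for Spry4, -0.12 for Spred1 and -0.22 for Spred2.

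**Figure D4:**
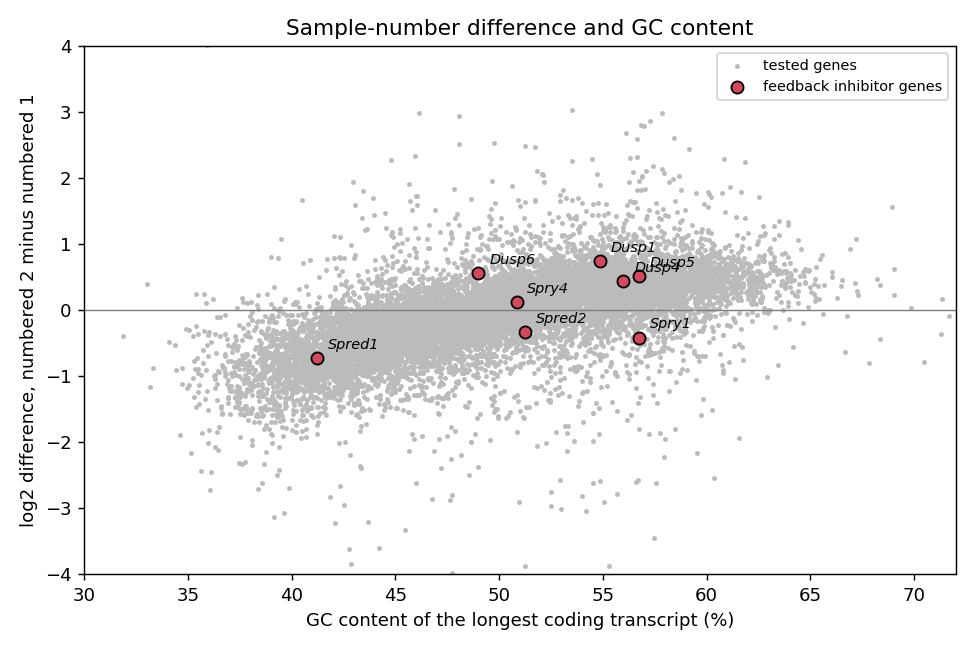
GC content of the longest coding transcript in percent (horizontal axis) against the log2 difference between samples numbered 2 and 1 (vertical axis, cut at 4 on either side, which leaves out 18 genes), with tested genes in grey and the 8 feedback inhibitor genes in red. The grey cloud slopes upwards (Spearman rho 0.678), Spred1 sits on its lower left at 41.22%, and Spry1 lies below the cloud's middle and Dusp6 above it.

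How alike the genes were among themselves was measured by the Euclidean distance between log2 profiles over the 4 samples, each centred on its own mean. Of the 28 pairs, Spry1 and Spred2 were nearest at 0.179 and Dusp4 and Dusp6 next at 0.334. Dusp1 and Dusp5 were 0.391 apart, and the distance was widest between Dusp1 and Spred1, at 1.64. Beyond the family, the 14142 tested genes were searched for the profiles closest to the 3 members with the widest range over samples, which were Dusp5 (1.23 on the log2 scale), Dusp1 (1.20) and Spred1 (0.999). Dusp5 was closest to Tekt2, which had only 0.162 to 0.513 CPM, at a distance of 0.0685, and to Ehd1 at 0.107, with 235 and 312 CPM in control and 328 and 529 CPM in Kap1 KD samples. The nearest to Dusp1 were Tox at 0.0636 and Padi2 at 0.0701, and to Spred1 Ubr1 at 0.0231 and Lats1 at 0.0271. All of these profiles rest on 4 points.

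Related genes outside the list were followed as fixed lists, and no gene of any of them was called in the fit of the 2 groups. Of 9 further DUSP, Sprouty and Spred genes, 8 were tested, with a median log2 change of 0.30. Within both numbers 5 were higher in Kap1 KD, against 32.8% of all tested genes, and 0 were lower, against 38.1%. Dusp8, a phosphatase directed at JNK and p38, had the largest difference of this list, at 9.57 and 8.85 CPM in control and 17.5 and 19.0 CPM in Kap1 KD samples. Its groups were well apart and its samples of 1 group close together, with a log2 change of 0.99 ± 0.21 (SE, unadjusted edgeR p of 0.0063). Dusp2, an inducible nuclear phosphatase, followed with 9.59 and 14.5 CPM in control and 12.3 and 23.0 CPM in Kap1 KD samples, groups that overlapped, and a log2 change of 0.55 ± 0.40 (SE). Dusp10, which also acts on JNK and p38, had the lowest value of this list at -0.06.

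Among other genes that ERK signalling is known to induce, 10 of 12 were tested, and the median log2 change was 0.15. Within both numbers 5 were higher, against 32.8% of all tested genes, and 2 lower, against 38.1%. Lif, a cytokine, went from 30.5 and 46.4 CPM in control to 49.3 and 76.9 CPM in Kap1 KD samples (log2 change 0.71 ± 0.34, SE), and Ier3, an immediate-early gene, from 21.8 and 28.2 to 31.4 and 45.4 CPM (log2 change 0.62 ± 0.28, SE). Both Kap1 KD samples were above both controls for these genes, although the upper control and the lower Kap1 KD sample lay close. At the other end stood Etv5, an ETS factor, at -0.28 and Phlda1 at -0.15. ERK targets outside the family thus had values of both signs, as had the 8 feedback inhibitors.

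Upstream, all 12 listed receptors were in the table and 11 were tested, of which 0 were higher and 8 lower in Kap1 KD within both numbers, against 38.1% of all tested genes, and 5 had both Kap1 KD samples below both controls, against 10.6%. Their median log2 change was -0.42, against -0.02 over all genes and -0.52 over the 6 tested hepatocyte markers, whose part in this was not tested. Fgfr4, the fibroblast growth factor receptor of hepatocytes, had 18.7 and 25.7 CPM in control and 9.11 and 10.6 CPM in Kap1 KD samples (log2 change -1.17 ± 0.26, SE, unadjusted edgeR p of 0.00726), and Fgfr2 6.23 and 5.00 against 3.66 and 2.99 CPM (-0.75 ± 0.28, SE). The one receptor with a positive value was Egfr at 0.01. Of 12 ligand genes 7 were tested, and Fgf1 went from 6.09 and 5.46 CPM in control to 2.35 and 1.73 CPM in Kap1 KD samples (-1.501 ± 0.30, SE, unadjusted edgeR p of 0.00458), followed by Btc at -0.72, while Hbegf stood at 0.34. Igf2 had a log2 change of 0.74 that rested on 1 library, with 0.969 and 1.25 CPM in control and 0.962 and 2.74 CPM in Kap1 KD samples, the last being the sample with the high 7SK signal.

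Fitted differences in the core of the cascade were small. Of 12 tested genes from Ras to ERK and its kinase targets, 1 was higher within both numbers, against 32.8% of all tested genes. Lower within both were 8, against 38.1%, and neither count was tested. The 12 genes had a median log2 change of -0.10, from -0.41 for Rps6ka3 and -0.18 for Araf to 0.10 for Map2k2 and 0.30 for Ksr1. The 11 adaptors and regulators of Ras had a median of -0.08 and ran from -0.35 for Rasa1 and -0.22 for Shc1 to 0.22 for Tesk1, a kinase that Sprouty proteins bind. In the JNK and p38 branch, 7 genes were tested with a median of 0.13, from -0.52 for Map2k6 to 0.22 for Map2k4 and 0.35 for Map2k3. The plot of pathway genes by role sets these lists beside the 8 feedback inhibitors, whose values lie between -0.31 and 0.75.

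**Figure D5:**
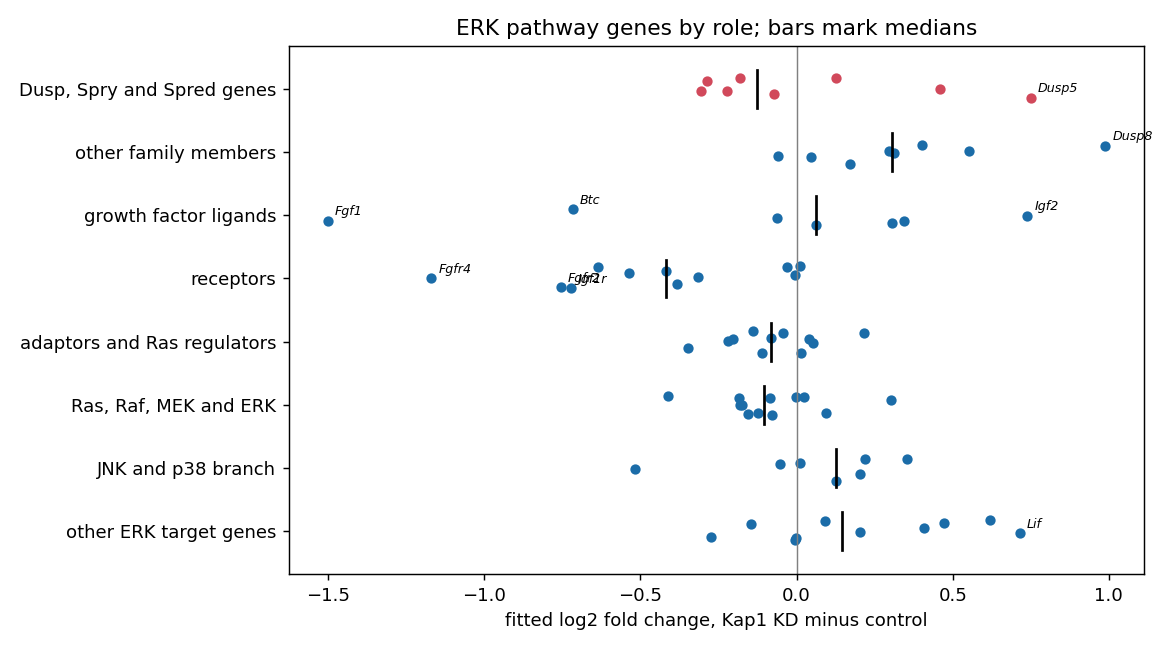
Fitted log2 fold change between Kap1 KD and control (horizontal axis) of each tested gene, one point per gene, in rows by role, with a bar at the median of each row; vertical scatter within a row has no meaning. The 8 feedback inhibitors (red) have a median of -0.13, the receptors one of -0.42 with Fgfr4 at -1.17, and the further family members one of 0.30 with Dusp8 at 0.99.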

How the data were processed

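Counts per Ensembl gene were deposited by the authors as whole numbers without normalization. The submitters' processing notes name TopHat2 2.0.11, HTSeq 0.6.1 and the mm9 build, and the methods state that 1 alignment was reported per read, but not the strand setting used in counting. Totals were 41566888 to 53605115 counts per sample. Symbols and coordinates came from the GENCODE annotation of mm9, which matched 21806 of 21915 identifiers. No listed gene overlaps another gene in the table. Samples were grouped by their genotype label.

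Genes were filtered with filterByExpr, normalized by TMM and tested with edgeR 4.0.16 in R 4.3.3 (quasi-likelihood F test), without a replicate block for Kap1 KD against control, and with group and sample number together for samples 2 against 1. Calls needed a 1.5-fold change and an adjusted p under 0.05, thresholds taken from the study's procedures. The study itself used DESeq2 at these thresholds and reported both upregulated and downregulated genes, so the counts given here are not those of the study. The SE was taken as the size of the log2 fold change over the square root of the F statistic, levels are means ± SD, and differences within numbers used log2(CPM + 0.1), which understates changes of genes with few counts. Levels between genes were divided by union exonic length. GC content is that of the longest coding transcript, and the GC and length correction was a loess per sample (span 0.3).

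Alternatives were the block, DESeq2 1.42.0, other scalings, no filter, another pseudocount (1 CPM) and leaving out each sample. The pipeline was tested on simulated data. Genes named were the 9 members, Trim28, at most the 2 largest changes each way per list, and the 2 nearest profiles of the 3 most variable members. Fgfr1, Fgfr3, Etv4, Dusp7, Dusp14, Dusp16, Spred3, Cd68, Pecam1, Kdr, Cdh5, Ttr and Serpina1a were named after their values were seen. Members, lists and rules were chosen with earlier results of these data known. The small RNA tables were not used. A gene of the fixed lists is not reported here.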

Additional observations from a re-analysis of the deposited data

How the results depend on the processing

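For Kap1 KD against control, 0 genes were called without the replicate block, and also under median-of-ratios factors, total counts, no filter and the GC and length correction alone. DESeq2 without the block called 3. Leaving out 1 sample gave 3 to 53 genes (19 without control 1, 20 without control 2, 53 without Kap1 KD 1, 3 without Kap1 KD 2), with the lone sample assumed to vary like the other group. With the replicate number as a block, 631 of the tested genes (4.46%) were called by edgeR and 234 (1.65%) by DESeq2, 230 of them by both. With the GC and length correction added, edgeR called 553 (3.91%). Same-numbered samples deviated together (correlation 0.813 across genes), but the labels do not say what the number marks and there are only 2 pairs. Of the 8 feedback genes, 0 were called without the block or with any sample left out (0 to 0), and 1, Dusp5, in each of the 3 paired fits, at a log2 change of 0.72 (edgeR adjusted p = 3.65e-19), 0.73 (DESeq2 adjusted p = 3.53e-07) and 0.64 (with the GC correction, edgeR adjusted p = 1.6e-15). At any fold, the adjusted p was passed with the block by 6 of 8 in edgeR, against 21.6% of all tested genes, and by 2 (Dusp1 and Dusp5) in DESeq2, against 6.07%. The edgeR fit with the block also called Trim28 and, of the related lists, Dusp8, Igf2, Lif and Ier3 (higher) and Fgf1, Btc, Fgfr4 and Fgfr2 (lower). Of the 2 lists of cell markers it called Alb, Epcam and Apoa1 (lower, Apoa1 at only 0.117 to 0.423 CPM) and Col1a1 (higher).

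The median log2 change of the 8 genes, -0.1259, was -0.1164 with DESeq2 or median-of-ratios factors, -0.1732 with total counts, -0.1165 without the filter, -0.1176 and -0.1342 in the paired DESeq2 and GC-corrected fits, and -0.0905 to 0.0564 with 1 sample left out (0.0564 without control 1). With 1 sample left out, the sign turned for Dusp4 (-0.17 to 0.38), Spry1 (-0.30 to 0.15) and Spred1 (-0.67 to 0.13) without control 1 or Kap1 KD 2, and for Dusp6 (-0.48 to 0.14) without control 2 or Kap1 KD 1. Dusp1, Dusp5, Spry4 and Spred2 had the same sign in all 12 alternatives, but Spred2 shrank to -0.0106 without control 1 and -0.081 without Kap1 KD 2, and Dusp1 to 0.1233 and 0.0723. Between numbers, the GC and length correction gave 1901 genes and 1 of the 8 called, with Spred1 at 0.0258. That contrast could not be fitted with a sample left out, as no residual degrees of freedom remain. The cause of these changes was not tested.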

Other observations

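Beyond the 2 receptors named above, the fibroblast growth factor receptors were looked at together after their values had been seen, so that no weight rests on the choice. Fgfr1, a receptor of mesenchymal and many other cells, measured 58.1 and 53.3 CPM in control samples 1 and 2 and 48.6 and 36.8 CPM in Kap1 KD samples (log2 change -0.38 ± 0.22, SE). Fgfr3 was at 1.47 and 1.25 against 0.939 and 0.812 CPM (-0.64 ± 0.33, SE). In Fgfr1, Fgfr2, Fgfr3 and Fgfr4 alike, the higher Kap1 KD value was under the lower control value, as in 10.6% of all tested genes. None passed the test in the fit without the sample number. Of the ETS factors that ERK signalling induces, Etv4 had 105 and 136 CPM in control and 130 and 205 CPM in Kap1 KD samples (0.47 ± 0.29, SE), with overlapping groups, and thus differed in sign from Etv5 at -0.28.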
